A study of Rattus norvegicus with 8 samples.

Results

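The genes described here are 7 that store iron or carry it across membranes, or that sense it: Fth1, Ftl1, Tfrc, Slc40a1, Slc11a2, Ireb2 and Aco1. They were taken by symbol from tables of 17168 genes, measured by RNA-seq in homogenised medial prefrontal cortex. All rats were male and of the Sprague-Dawley strain; 4 libraries, HI1 to HI4, came from the high motor impulsivity group (HI) and 4, LI1 to LI4, from the low motor impulsivity group (LI). Per the labels, the 1-CSRT task scored impulsivity by premature responding, with HI rats from the upper and LI rats from the lower quartile, so rats of middling score are not represented. No drug, allele or age is given in the labels for either group. The labels do not say that each library is a separate animal, so every SD and p-value measures the spread between libraries.

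Iron in cells is held in ferritin, a hollow shell built of heavy chains (Fth1), which oxidise the iron, and light chains (Ftl1), which help it mineralise. Iron enters through the transferrin receptor (Tfrc), leaves the endosome through the divalent metal transporter Slc11a2, and leaves the cell through ferroportin (Slc40a1). The iron regulatory proteins made from Aco1 and Ireb2 bind hairpins called iron-responsive elements; when iron is scarce they block translation of ferritin and ferroportin mRNA and protect Tfrc mRNA from decay, so that mRNA and protein need not move together. In the brain, oligodendrocytes and microglia are rich in ferritin, and iron is a cofactor of the enzymes that make dopamine and serotonin.

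Promoter windows from RefSeq (build GRCr8) were matched for 5 of the 7 genes, all but Fth1 and Ftl1, with a second window for Slc11a2. The windows of the iron importer receptor Tfrc and of the iron exporter Slc40a1 are shown because these genes stand at the entry and exit of iron; each is the 250 bases before the transcript start, 5′ to 3′. The Tfrc window is chr11:81690319-81690568 on the minus strand and the Slc40a1 window is chr9:55543461-55543710 on the minus strand. Capitals mark the letters ACGTG, the core of the hypoxia response element, searched on both strands.
Tfrc: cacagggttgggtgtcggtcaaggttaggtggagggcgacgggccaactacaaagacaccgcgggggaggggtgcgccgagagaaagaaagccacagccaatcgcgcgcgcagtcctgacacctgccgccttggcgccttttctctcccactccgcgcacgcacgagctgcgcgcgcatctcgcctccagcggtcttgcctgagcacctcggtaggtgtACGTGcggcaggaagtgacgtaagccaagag
Slc40a1: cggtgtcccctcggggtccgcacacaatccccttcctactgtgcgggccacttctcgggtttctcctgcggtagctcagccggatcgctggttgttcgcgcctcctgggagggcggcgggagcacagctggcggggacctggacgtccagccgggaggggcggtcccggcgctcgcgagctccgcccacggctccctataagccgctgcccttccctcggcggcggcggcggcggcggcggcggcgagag
ACGTG occurred once among the windows of these 5 genes, 31 bases before the start of Tfrc on the plus strand of the gene, against 16.6% of all 33469 windows in the table. The letters TGACNNNGC, the core of the antioxidant response element, occurred in none of these genes' windows, against 10.1% of all windows. G and C made up 64.8% of the Tfrc window and 74% of the Slc40a1 window.

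Total counts lay between 7354416 and 9476656 per library. CPM below is a gene's count scaled to the normalised total count of its library. Ribosomal RNA took 0.406% of the counts in HI4 and 0.418% in LI3, between 3.96% and 25.5% in the other HI libraries and between 1.37% and 6.42% in the other LI libraries. All 8 neuronal, 10 oligodendrocyte and 11 microglial markers listed had counts, while the 7 choroid plexus markers together summed to between 1.49 and 4.55 CPM in HI and between 1.89 and 5.05 CPM in LI. LI2 had the highest sum of striatal markers, 863 CPM, against 337 to 384 CPM in HI and 359 to 382 CPM in the other LI libraries. HI1 had the highest sum of meningeal markers, 1019 CPM, against 77.7 to 262 CPM in the other HI libraries and 35.9 to 224 CPM in LI.

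On a scale per transcript length (TPM), ferritin heavy chain was by far the most abundant of the 7 transcripts. Over the 8 libraries Fth1 averaged 3818 ± 549 TPM and Ftl1 849 ± 159 TPM (SD, n = 8). The import receptor Tfrc followed at 41.3 ± 4.2 TPM, then the regulatory proteins' and transporter's transcripts: Aco1 at 25.7 ± 2.78, Slc11a2 at 21.2 ± 3.54 and Ireb2 at 18.7 ± 2.26 TPM. The exporter Slc40a1 was lowest at 3.93 ± 0.89 TPM. The ranges over libraries of neighbours in this order did not overlap between Fth1 and Ftl1, Ftl1 and Tfrc, Tfrc and Aco1, or Ireb2 and Slc40a1. Aco1 and Slc11a2 overlapped in range, although Aco1 was above Slc11a2 in all 8 libraries, and Slc11a2 was above Ireb2 in 6 of 8. Among all genes listed, Fth1 ranked 10, 11, 10 and 16 by TPM in HI1 to HI4, against 8, 7, 8 and 7 in LI1 to LI4.

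The 7 genes were selected on earlier measured values of HI against LI in these libraries, among them a DESeq2 call of Fth1 as lower in HI, so the differences that follow are a description with no test of their own. With the quasi-likelihood test of edgeR over 11631 genes, 0 of the 7 had an adjusted p under 0.1, against 0% of all genes tested. At an unadjusted p under 0.05 the same test gave 484 genes (4.16%), 3.07% higher and 1.09% lower in HI. At an adjusted p under 0.1, DESeq2 called 30 of 7509 genes (0.4%), of which Fth1 was the 1 lower in HI, edgeR's exact test called 1 and limma-voom 0. Fisher's exact test on summed counts, which ignores the spread between libraries, called 56.7% of genes, and edgeR with the log2 ribosomal RNA share as a covariate called 3.78%. All 7 genes passed the low-count filter. Of the 7, 3 had a fold change above 0 and 4 below, with a median log2 fold change of -0.10, beside a median of -0.01 over all genes tested.

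**Figure D1:**
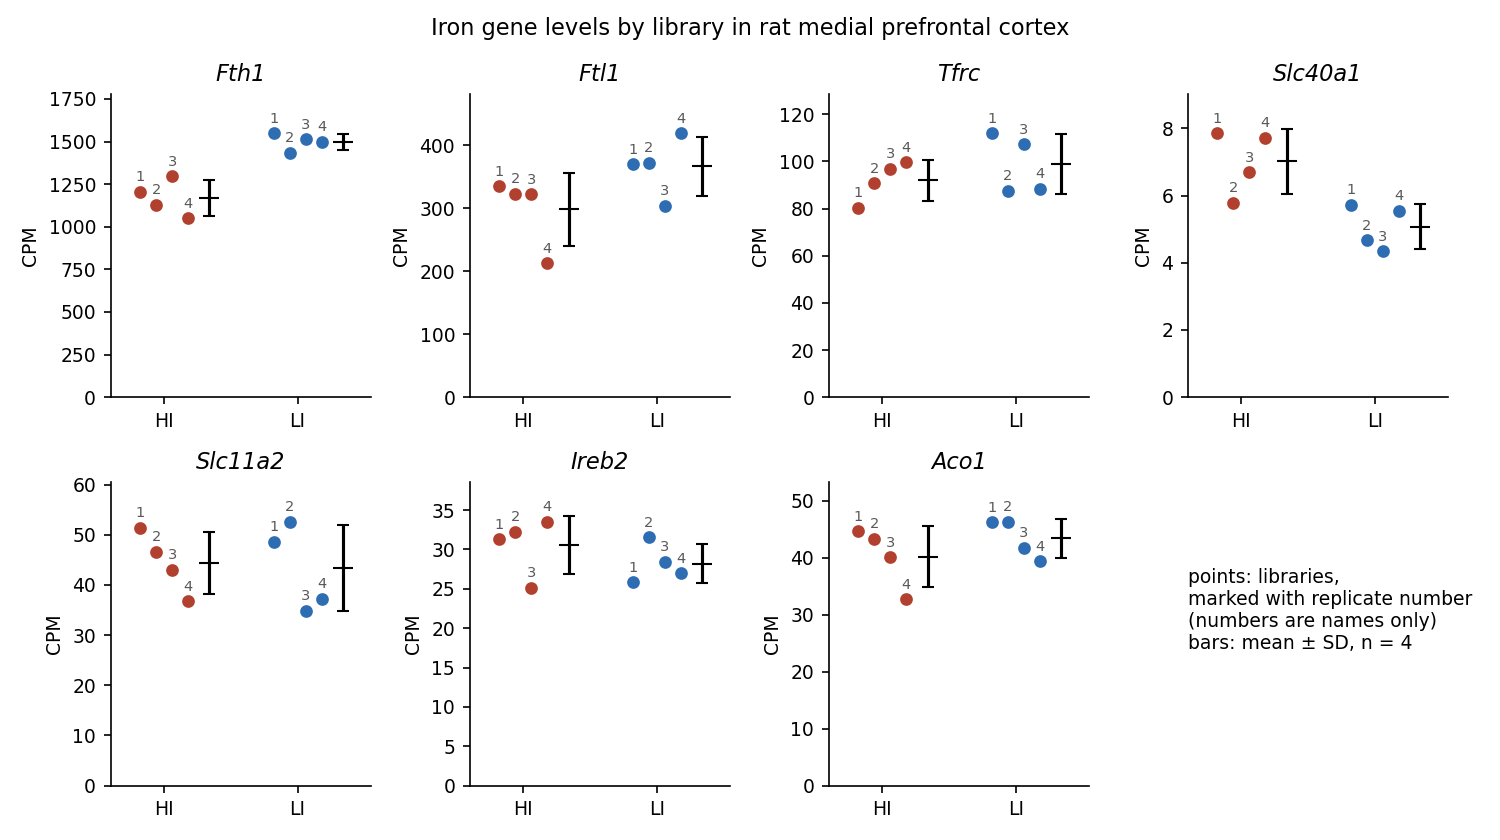
CPM of each iron gene (vertical axes, linear from 0) in HI libraries (red, left) and LI libraries (blue, right), with mean ± SD (n = 4) beside the points. Fth1 lies below all LI libraries in every HI library, Slc40a1 lies just above, and the other 5 genes overlap.

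Ferritin heavy chain transcript was less abundant in these HI libraries, a difference that did not pass the main test. Fth1 stood at 1205, 1130, 1296 and 1050 CPM in HI1 to HI4, against 1550, 1434, 1513 and 1499 CPM in LI1 to LI4. The highest HI library was below the lowest LI library, and the LI libraries lay closer together, with a coefficient of variation of 8.98% in HI and 3.23% in LI. The HI mean was 78.1% of the LI mean, a log2 fold change of -0.36 ± 0.10 (SE, n = 4 each). By edgeR's quasi-likelihood test its adjusted p was 0.99997, above the threshold of 0.1. Groups did not overlap in CPM in 2 of the 7 genes, against 3.46% of all genes tested, with HI below in 1.14% and HI above in 2.31%. Per length, Fth1 stood at 3543, 3068, 3684 and 3078 TPM in HI1 to HI4, against 4333, 4251, 4260 and 4327 TPM in LI1 to LI4, again without overlap. Its counts ran from 6837 to 14885 per library and were whole numbers in all 8, where the counting error alone is at most 1.21%.

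Ferritin light chain followed the same direction less evenly. Ftl1 stood at 335, 324, 323 and 212 CPM in HI1 to HI4, against 370, 372, 304 and 420 CPM in LI1 to LI4. LI3 lay inside the HI range, and HI4 lay far below the other HI libraries. The log2 fold change was -0.30 ± 0.16 (SE, n = 4 each), and -0.17 without HI4. Ftl1 was the only one of the 7 whose deposited expected counts were not whole in any library, as arises where reads are divided among transcripts, and its level is less certain. The ratio of Fth1 to Ftl1 in TPM, heavy against light chain, was 4.03, 3.91, 4.50 and 5.54 in HI1 to HI4, against 4.69, 4.31, 5.57 and 4.00 in LI1 to LI4. It was highest in HI4 and LI3, the libraries with the least ribosomal RNA, and overlapped between the groups.

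Several properties of the libraries are set beside ferritin here, and beyond the values given their part in the result was not tested. In bulk tissue, fewer cells of a type and less RNA per cell cannot be told apart. All 10 oligodendrocyte markers had lower means in HI, with a summed level of 2141 to 2352 CPM in HI and 1815 to 6940 CPM in LI. LI1, the library with the lowest oligodendrocyte sum (1815 CPM), had the highest Fth1 (1550 CPM), and LI2, with the highest sum (6940 CPM), had the lowest Fth1 in LI (1434 CPM). Without LI2 the log2 fold change of Fth1 was -0.38. Of 11 microglial markers, 10 had lower means in HI, and the sum of the 11 ranged from 377 to 467 CPM in HI and from 465 to 525 CPM in LI. LI1 had the highest microglial sum (525 CPM) and the highest Fth1, and HI4 the lowest sum (377 CPM) and the lowest Fth1 (1050 CPM). The order was not kept throughout, as HI2 had a sum of 467 CPM with Fth1 at 1130 CPM. LI3 had a sum of 465 CPM with Fth1 at 1513 CPM. The microglial gene Tmem119 stood at 9.09 to 9.72 CPM in HI and 10.8 to 21.7 CPM in LI, and Aif1 at 8.82 to 10.2 CPM in HI and 10.8 to 12.9 CPM in LI, both without overlap. These 2 were named after their values were seen, as the only microglial markers of the 11 with HI below LI throughout, against 1.14% of all genes tested; the other 9 overlapped, and Cd68 had a higher mean in HI.

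The libraries also differed in how level went with transcript length, and the part of this in the result was not tested. The listed transcripts are 828 bases for Fth1 and 913 for Ftl1. The slope of log2 CPM, centred per gene, on log2 transcript length was -0.008, 0.009, -0.005 and 0.132 in HI1 to HI4, against -0.084, -0.029, 0.005 and -0.022 in LI1 to LI4. HI4, with the steepest positive slope, had the lowest Fth1 and Ftl1 of all 8 libraries. With this slope as a covariate the log2 fold change of Fth1 was -0.27 ± 0.10 and that of Ftl1 -0.06 ± 0.13 (SE, n = 4 each). Members with longer listed transcripts moved by differing amounts and in both directions. Slc11a2 (4320 bases) went from 0.04 to 0.24 and Aco1 (3413 bases) from -0.11 to 0.048, while Slc40a1 (3236 bases) stayed at 0.47. Ireb2 (3297 bases) went from 0.12 to 0.015, and Tfrc, the longest (4787 bases), from -0.10 to -0.14.

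**Figure D2:**
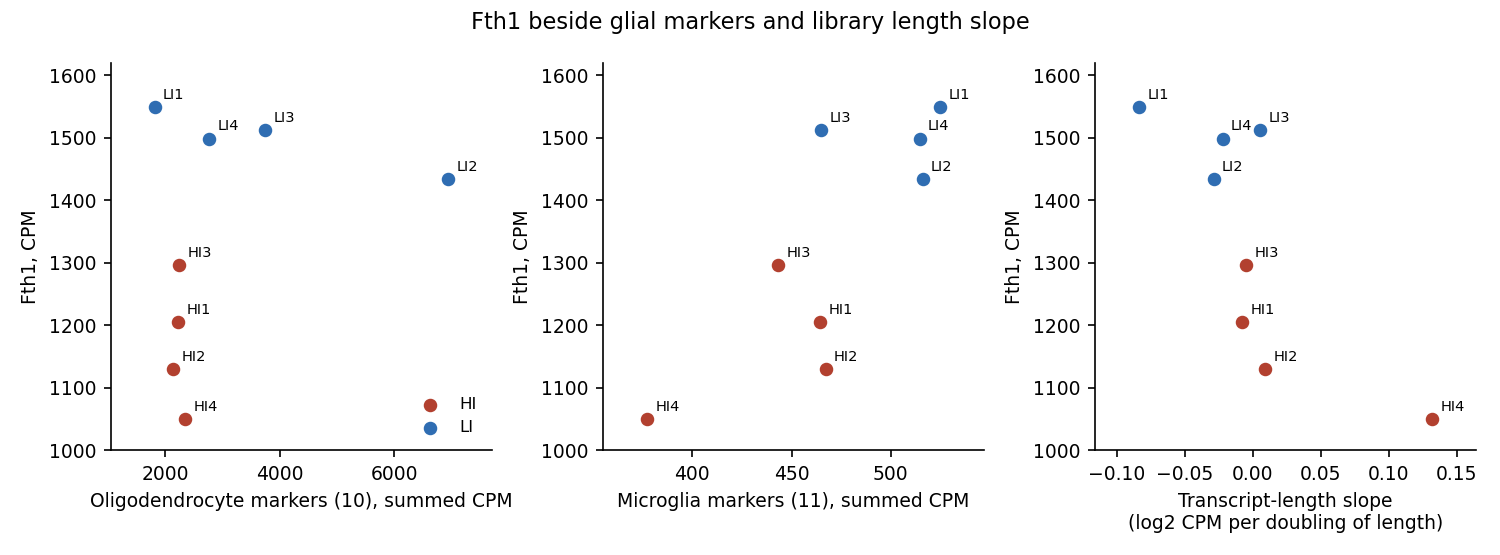
Fth1 in CPM (vertical axes, which do not start at 0) against the summed CPM of oligodendrocyte markers (left), the summed CPM of microglial markers (middle) and the slope of log2 CPM on log2 transcript length (right), 1 point per library, HI in red and LI in blue. LI1 has the lowest oligodendrocyte sum (1815 CPM) and the highest Fth1 (1550 CPM), while HI4 has the lowest microglial sum (377 CPM) and the steepest slope (0.132).

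The iron exporter was the other gene whose groups did not overlap in CPM, at a low level. Slc40a1 stood at 7.86, 5.79, 6.69 and 7.72 CPM in HI1 to HI4, against 5.73, 4.67, 4.34 and 5.55 CPM in LI1 to LI4. HI2 was above LI1 by a narrow margin. The log2 fold change was 0.47 ± 0.19 (SE, n = 4 each). These levels rest on 76, 35, 63 and 58 counts in HI1 to HI4 and 55, 37, 34 and 53 counts in LI1 to LI4, where the counting error alone is 11.5% to 16.9% in HI and 13.5% to 17.1% in LI. The coefficient of variation between libraries was 13.8% in HI and 13.3% in LI, close to these counting errors. In TPM, which the authors scaled over ribosomal RNA too, HI2 at 3.56 lay below LI1 at 3.63 and LI4 at 3.64, and the groups overlapped.

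The import genes showed no separation of the groups. Tfrc stood at 80.3, 90.8, 97.0 and 99.7 CPM in HI1 to HI4, against 112, 87.6, 107 and 88.4 CPM in LI1 to LI4. LI1 and LI3 were above every HI library, and LI2 and LI4 lay inside the HI range, with a log2 fold change of -0.10 ± 0.12 (SE, n = 4 each). Leaving out 1 library moved it to -0.044 without HI1, -0.044 without LI1 and -0.062 without LI3, and to -0.16 without LI2 or LI4. Slc11a2, which passes iron out of the endosome, stood at 51.4, 46.6, 43.0 and 36.7 CPM in HI1 to HI4, against 48.6, 52.6, 34.8 and 37.3 CPM in LI1 to LI4. The groups covered the same range, with a log2 fold change of 0.04 ± 0.17, and the sign turned without HI1 (-0.042), LI3 (-0.053) or LI4 (-0.035). It reached 0.14 without LI2, and 0.24 with the length slope as a covariate. The ratio of Tfrc to Slc40a1 in TPM was 6.83, 10.5, 9.66 and 8.63 in HI1 to HI4, against 13.1, 12.5, 16.5 and 10.6 in LI1 to LI4. All HI lay below all LI, by a narrow margin between HI2 and LI4. This ratio carries the Slc40a1 difference given above, which rests on 34 to 76 counts per library. The other ratios computed, Fth1 to Ftl1, Fth1 to Tfrc and Aco1 to Ireb2, overlapped between the groups. The tables list 1 transcript for each of the 7 genes, so Slc11a2 forms with and without an iron-responsive element were not separated.

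The transcripts of the iron regulatory proteins also overlapped between the groups. Ireb2 stood at 31.3, 32.2, 25.2 and 33.5 CPM in HI1 to HI4, against 25.8, 31.5, 28.5 and 27.0 CPM in LI1 to LI4. HI3 was the lowest of all libraries and the other HI libraries were near or above the highest LI library, with a log2 fold change of 0.12 ± 0.13 (SE, n = 4 each). It was 0.20 without HI3, 0.17 without LI2, 0.066 without HI4, 0.069 without LI1 and 0.015 with the length slope as a covariate. Aco1, whose protein serves as cytosolic aconitase when iron is plentiful, stood at 44.7, 43.3, 40.0 and 32.7 CPM in HI1 to HI4, against 46.2, 46.3, 41.7 and 39.4 CPM in LI1 to LI4. HI4 was again the lowest library; the log2 fold change was -0.11 ± 0.13, -0.025 without HI4, -0.17 without HI1 and 0.048 with the length slope as a covariate.

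**Figure D3:**
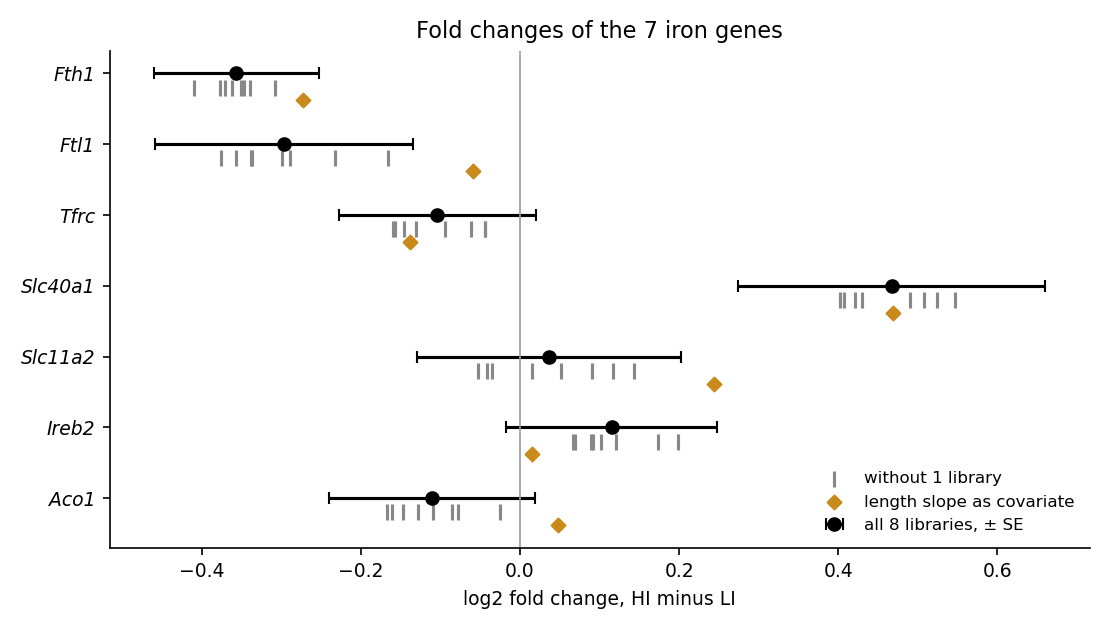
Log2 fold change of HI minus LI for each gene (horizontal axis), with all 8 libraries and its SE (black), without each library in turn (grey ticks) and with the length slope as a covariate (yellow). Fth1 stays between -0.41 and -0.31 and Slc40a1 between 0.40 and 0.55 whichever library is left out, whereas Slc11a2 falls on both sides of 0 and Ftl1 moves to -0.06 with the covariate.

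Across the 8 libraries the members did not vary as 1 block. Correlations here are of log2 CPM, describe these libraries only, and share the libraries' scaling. Fth1 and Ftl1 had r = 0.72, 0.82 in the 6 libraries without HI4 and LI3, and 0.59 with group means subtracted. Fth1 and Slc40a1 had r = -0.72, and -0.52 without HI4 and LI3. It was 0.02 once each group's mean was subtracted, so their opposite pattern lay between the groups. Fth1 and Ireb2 had r = -0.69, -0.58 without HI4 and LI3, and -0.88 with group means subtracted. Slc11a2 and Aco1 had r = 0.74, 0.92 without HI4 and LI3, and 0.85 with group means subtracted. Ftl1 and Aco1 had r = 0.73, and 0.68 with group means subtracted, but -0.12 without HI4 and LI3.

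The genes whose log2 CPM followed Fth1 most closely over the 8 libraries were Tmem176b (r = 0.97), Ndufa4 (0.95), Snrpc (0.95), Fndc5 (0.94) and Ppdpf (0.94). Tmem176b encodes a membrane protein, Ndufa4 a subunit of the respiratory chain, Snrpc a protein of the U1 splicing particle and Fndc5 the precursor of irisin. Tmem176b averaged 52.2 ± 3.38 CPM (SD, n = 4) in the HI libraries and 66.5 ± 1.36 CPM (SD, n = 4) in the LI libraries. All 5 had every HI library below every LI library, against 1.14% of all genes tested, but they were picked for following Fth1 in the same libraries, so this separation comes with the choice. The genes most like Ftl1 were the ribosomal protein gene Rpl12 (0.98), Tmem256 (0.97) and Tfpt (0.97), with listed transcripts of 724, 474 and 753 bases. Those most like Tfrc were Aktip (0.95), Slc35f2 (0.94) and Cops5 (0.92).

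Other genes of iron handling lay on both sides of 0 in about the same share as all genes. The lists held 83 genes, of which 77 were in the tables and 66 were tested. Of the 66, 30 had a fold change above 0 and 36 below (54.5% below, against 51.5% of all genes tested), with a median log2 fold change of -0.04. None had an adjusted p under 0.1 by edgeR. At an unadjusted p under 0.05 there were 1 gene higher and 3 lower in HI (6.06%, against 4.16% of all genes). HI lay below LI without overlap in 3 (4.55%, against 1.14%). It lay above in 1 of the 66, against 2.31% of all genes tested. That gene was Slc39a14, with HI2 at 34.7149 CPM barely above LI3 at 34.7115 CPM.

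**Figure D4:**
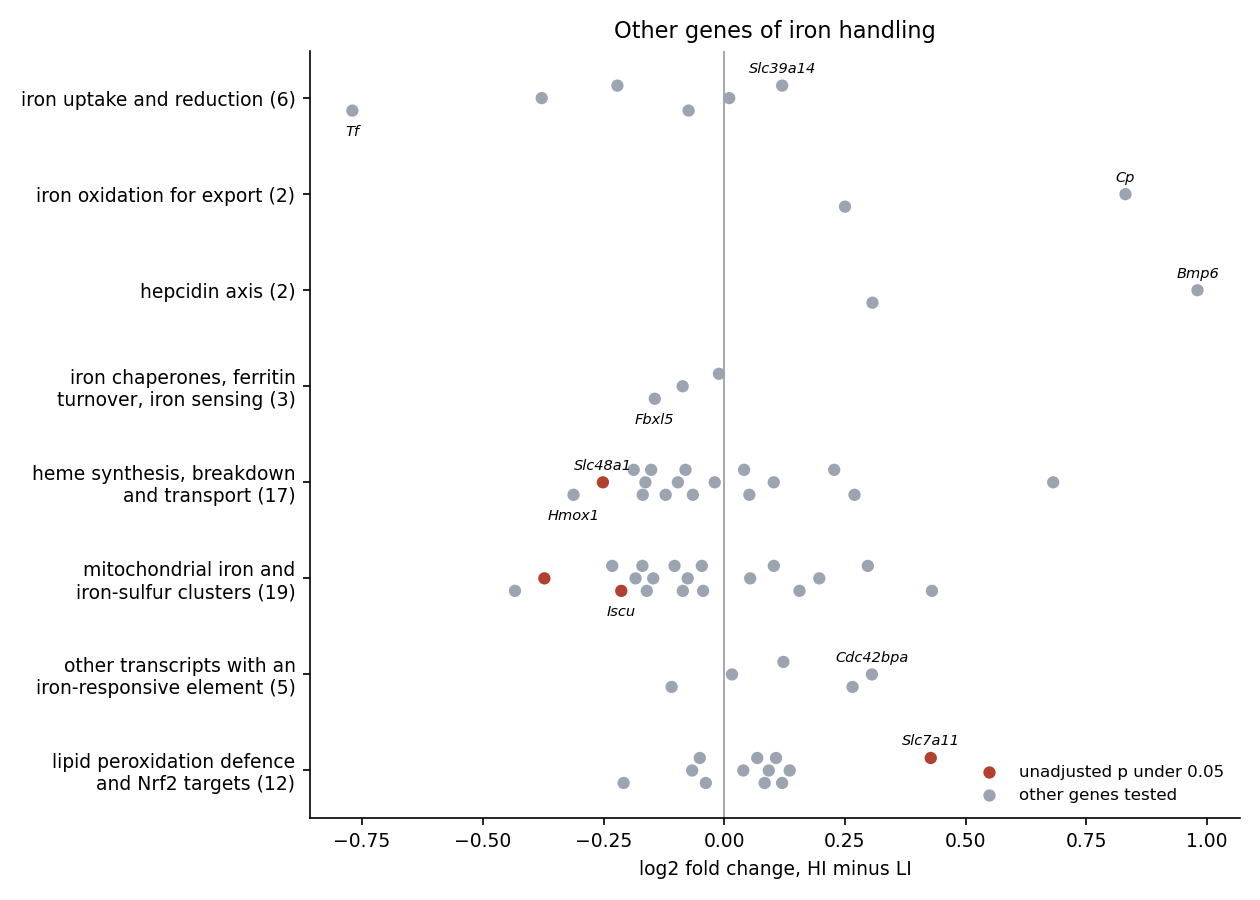
Log2 fold change of HI minus LI (horizontal axis) for the 66 other iron-handling genes tested, by list (rows, number tested in brackets), with genes at an unadjusted p under 0.05 in red. Red genes include Slc48a1 and Iscu below 0 and Slc7a11 above 0, and none had an adjusted p under 0.1 by edgeR.

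Among genes of iron uptake and reduction, 2 were higher and 4 lower in HI, of 6 tested. Tf encodes transferrin, the iron carrier that the Tfrc protein binds, and in brain is made largely by oligodendrocytes. It stood at 119, 147, 113 and 119 CPM in HI1 to HI4, against 93.2, 439, 180 and 135 CPM in LI1 to LI4. LI2, the library with the most oligodendrocyte and striatal marker RNA, was above all others, and the log2 fold change was -0.77 ± 0.40 (SE, n = 4 each) with it and -0.13 without it. Slc39a14, which imports iron not bound to transferrin, averaged 37.1 ± 2.91 CPM (SD, n = 4) in the HI libraries and 34.1 ± 0.63 CPM (SD, n = 4) in the LI libraries. Its lowest HI library and highest LI library both stood at 34.7 CPM. Tfr2, a further receptor for transferrin, did not pass the filter on low counts, with at most 1.16 CPM in any HI library and 1.89 CPM in any LI library.

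Of the ferroxidases that assist export, both genes tested had higher means in HI. Ceruloplasmin (Cp) stood at 26.7, 10.7, 7.65 and 5.46 CPM in HI1 to HI4, against 4.58, 7.95, 6.64 and 9.43 CPM in LI1 to LI4. HI1, with the highest meningeal sum, was above all others, and the log2 fold change of 0.83 ± 0.46 was 0.15 without HI1; the part of the meningeal RNA was not tested. In the hepcidin axis, Bmp6, the signal that induces hepcidin in liver, had the same pattern, at 41.5 CPM in HI1, 7.32 to 17 CPM in the other HI libraries and 7.15 to 13.6 CPM in LI, and its log2 fold change of 0.98 ± 0.46 was 0.31 without HI1. Hepcidin itself (Hamp) did not pass the filter on low counts. It had 1 count in HI1 and 2 in HI3 (0.103 and 0.212 CPM), and was at 0 in HI2, HI4 and the 4 LI libraries. So few counts do not tell the groups apart.

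All 3 genes tested of iron chaperones, ferritin turnover and iron sensing had lower means in HI, by small amounts. Fbxl5, which marks the Ireb2 protein for degradation when iron is plentiful, stood at 76.9, 73.1, 74.5 and 72.1 CPM in HI1 to HI4, against 80.7, 79.8, 83.8 and 83.5 CPM in LI1 to LI4. All HI libraries lay below all LI libraries by a small amount, a log2 fold change of -0.14 ± 0.09 (SE, n = 4 each; unadjusted p = 0.138 by edgeR). Ncoa4, which delivers ferritin to lysosomes, averaged 89.4 ± 7.75 CPM (SD, n = 4) in the HI libraries and 90.0 ± 4.82 CPM (SD, n = 4) in the LI libraries, with a log2 fold change of -0.01 ± 0.10. The iron chaperone gene Pcbp2 averaged 228 ± 9.21 CPM in HI and 242 ± 12.3 CPM in LI. The mitochondrial ferritin gene Ftmt had no counts in any library.

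Of 17 heme genes tested, 6 were higher and 11 lower in HI. Slc48a1, a heme transporter, stood at 105, 98.4, 109 and 89.8 CPM in HI1 to HI4, against 111, 133, 115 and 119 CPM in LI1 to LI4, again without overlap. Its log2 fold change was -0.25 ± 0.11 (SE, n = 4 each; unadjusted p = 0.0405 and adjusted p = 1.00 by edgeR). Heme oxygenase (Hmox1), which frees iron from heme, averaged 3.92 ± 0.98 CPM (SD, n = 4) in the HI libraries and 4.87 ± 0.39 CPM (SD, n = 4) in the LI libraries, and the groups overlapped.

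Of 19 genes of mitochondrial iron and iron-sulfur clusters tested, 6 were higher and 13 lower in HI. Iscu, the scaffold on which the clusters are built, stood at 74.3, 71.6, 71.3 and 72.7 CPM in HI1 to HI4, against 79.1, 89.7, 84.7 and 82.5 CPM in LI1 to LI4, without overlap. Its log2 fold change was -0.21 ± 0.09 (SE, n = 4 each; unadjusted p = 0.0437 by edgeR).

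Of 5 other transcripts known to carry an iron-responsive element, 4 were higher and 1 lower in HI. Cdc42bpa, a kinase gene with the element in some of its transcripts, stood at 348 CPM in HI4, 204 to 217 CPM in the other HI libraries and 182 to 216 CPM in LI, and its log2 fold change of 0.31 ± 0.18 was 0.09 without HI4. Of 12 genes of lipid peroxidation defence and Nrf2 targets, 8 were higher and 4 lower. Slc7a11, the cystine importer that feeds glutathione synthesis, stood at 152, 113, 91.4 and 146 CPM in HI1 to HI4, against 83.2, 79.6, 105 and 106 CPM in LI1 to LI4. HI3 lay inside the LI range, and the log2 fold change was 0.43 ± 0.18 (SE, n = 4 each; unadjusted p = 0.0369 by edgeR).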

How the data were processed

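Libraries were grouped by their titles. TRIzol and RNeasy columns gave the RNA for Illumina libraries, per the labels' protocols. Per the file headers, the deposited tables give an expected count and a TPM per gene, with transcript length; the deposited FPKM was not used. The submitters' processing notes name Bowtie2 2.1.0; for the quantifier, build, annotation and strand setting, nothing was given in the sources used. Expected counts were rounded. Genes were filtered with filterByExpr (minimum count 10, minimum total 15), scaled by TMM and tested over 11631 genes with edgeR 4.0.16 in R 4.3.3, with Benjamini-Hochberg adjustment and the threshold of 0.1 that the series states; the Fisher's exact test it names, which ignores the spread between libraries, was an alternative. CPM is counts over the TMM-scaled total of the genes tested; log2 CPM used a prior count of 2. SE is the absolute log2 fold change over the square root of the quasi-likelihood F. The test was run on simulated counts holding only changes larger than any member showed, so this does not bear on changes of the members' size. Alternatives used limma 3.58.1 (log2 TPM plus 1 or 0.1) and DESeq2 1.42.0 on all genes. No 2 libraries of a group agreed within sampling noise.

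The members and gene lists were chosen with earlier results of these data known. Named from the lists are genes with an unadjusted p under 0.05 (or the smallest p of a list), 10 fixed genes, of which Pcbp1 is not in the tables, and the genes most correlated with Fth1, Ftl1 and Tfrc. Tmem119, Aif1 and Ftmt were added after their values were seen. A gene that this rule names is not reported here.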

Additional observations from a re-analysis of the deposited data

Results flagged for a closer look

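Of 58 combinations of a group and a gene or marker sum examined, 3 held a library far from the other 3 of its group; chance flags about 1 in 20. Ftl1 was 212 CPM in HI4, against 323 to 335 CPM in the other HI libraries. Cdc42bpa was 348 CPM in HI4, against 204 to 217 CPM in the other HI libraries. The summed striatal markers were 863 CPM in LI2, against 359 to 382 CPM in the other LI libraries.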

How the results depend on the processing

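The count of genes called at an adjusted p of 0.1 was 0 with edgeR's quasi-likelihood test, and 30 with DESeq2, 1 with edgeR's exact test, 6596 with Fisher's exact test on summed counts and 440 with the log2 ribosomal RNA share as a covariate, an alternative added after seeing the data; the cause was not tested. It was 0 without each library in turn and with the other scalings, filters, limma tests and covariates run. Fth1 passed with DESeq2 (adjusted p = 0.0786), Fisher's test and the log2 ribosomal RNA covariate (adjusted p = 0.0785 by edgeR). It did not pass with edgeR's exact test (adjusted p = 0.896) or limma-voom (adjusted p = 0.999). The DESeq2 call was among the values on which Fth1 was selected, and all alternatives use the same libraries. These passes are therefore not separate evidence. Fth1 was lower in HI in all 23 alternatives, from -0.45 to -0.27 (log2). Over the alternatives without 1 library it ranged from -0.41 to -0.31. Ftl1, Tfrc, Slc40a1 and Ireb2 also kept their direction in all 23. Slc11a2 turned to -0.057 with Fisher's test, -0.041 with the log2 ribosomal RNA share and -0.036 with the ribosomal RNA share as covariates, and ranged from -0.053 to 0.14 without 1 library. Aco1 turned to 0.048 with the length slope as a covariate. Over all genes the median log2 fold change was -0.11 in Fisher's test, run without TMM scaling. No pairing of the libraries by replicate number was evident (same-numbered deviations correlated at 0.22, 0.54, -0.05 and 0.06). So few libraries cannot exclude a pairing. Deviations of different-numbered libraries correlated between -0.59 (HI4 and LI2) and 0.78 (HI4 and LI3), so some libraries resembled each other across the groups. With the replicate number as a block the count was 0 and Fth1 was -0.36. Depth limits Slc40a1, at 34 to 76 counts per library.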

Other observations

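Red blood cell transcripts, whose protein product hemoglobin binds iron through heme, were present in every library. The hemoglobin alpha gene Hba1 stood at 302, 93.4, 171 and 118 CPM in HI1 to HI4, against 178, 114, 119 and 131 CPM in LI1 to LI4, and the beta gene Hbb at 151, 58.2, 51.4 and 19 CPM in HI1 to HI4, against 79.4, 65.1, 22.7 and 34 CPM in LI1 to LI4. Alas2, the erythroid enzyme of heme synthesis, was highest in the same library, at 5.89 CPM in HI1, 0.532 to 1.82 CPM in the other HI libraries and 0.893 to 2.29 CPM in LI. The summed red blood cell markers ranged from 169 to 604 CPM in HI and from 180 to 344 CPM in LI, and the groups overlapped. HI1 and LI1 had the highest sums of their groups, at 604 and 344 CPM, and Fth1 stood at 1205 and 1550 CPM in them.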
